A study of Mus musculus with 6 samples.

Results

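Quinone reductase, the glutathione S-transferases (GSTs) and their companion enzymes were examined in cultured mouse granulosa cells (GCs), the somatic cells around the oocyte of a follicle. The genes were 10 in number, chosen by name as phase II detoxification enzymes: *Nqo1*, *Gsta1*, *Gsta2*, *Gsta3*, *Gsta4*, *Gstm1*, *Gstm2*, *Gstp1*, *Ephx1* and *Cbr1*. The choice was made with earlier results of these data known. All 10 were found among the 16300 genes of the deposited RNA-seq table, and all 10 passed the filter on low values. The table held 6 libraries from wild type C57BL/6J mice aged 8 to 9 weeks. In 3 libraries the GCs were labelled control, and in 3 they were treated with 25 nM dihydrotestosterone (DHT), an androgen that aromatase cannot turn into estrogen, for 24 h. Each library pooled the GCs of 5 mice, collected at estrus and cultured for 48 h before serum starvation, so the data describe cultured cells and not the follicle in place. The protocol in the labels names whole ovary as the source of RNA, whereas the cell type label and the methods of the study name GCs. Which libraries came from the same pool of mice is not given in the sources used here, so the p-values measure the spread between these libraries.

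Phase II enzymes make reactive compounds less harmful by reducing them or by joining them to a small polar molecule. NQO1 reduces quinones directly to hydroquinones, which avoids the reactive semiquinone. GSTs join glutathione to electrophiles, and the alpha, mu and pi classes differ in the substrates they prefer. Microsomal epoxide hydrolase (EPHX1) opens epoxides with water, and carbonyl reductase (CBR1) reduces carbonyls and quinones, prostaglandins among them. Many genes of this kind are known targets of NRF2 (encoded by *Nfe2l2*), a transcription factor that KEAP1 holds at a low level until electrophiles or oxidants release it, and that binds antioxidant response elements. Some also respond to the aryl hydrocarbon receptor (AHR) through xenobiotic response elements. GCs make steroids, a chemistry that generates oxidants, and alpha class GSTs are known to be abundant in steroid-making cells.

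The promoters of the genes that moved most, and of a closely related pair, are shown first because these are where such elements are looked for. The 250 bases before the start were taken from RefSeq on GRCm38.p6, where 9 of the 10 genes had an entry. *Gsta4* had none. Each is written 5′ to 3′ on the strand of its gene. *Nqo1* (chr8:107403206-107403455, minus strand) had the largest fall of the 10, and *Gsta3* (chr1:21240335-21240584, plus strand) is shown with its match to the antioxidant response element core in capitals.

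Nqo1: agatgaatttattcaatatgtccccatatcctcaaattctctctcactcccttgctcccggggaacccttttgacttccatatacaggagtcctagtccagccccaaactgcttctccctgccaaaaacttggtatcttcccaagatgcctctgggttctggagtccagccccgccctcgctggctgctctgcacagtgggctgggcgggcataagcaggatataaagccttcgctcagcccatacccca
Gsta3: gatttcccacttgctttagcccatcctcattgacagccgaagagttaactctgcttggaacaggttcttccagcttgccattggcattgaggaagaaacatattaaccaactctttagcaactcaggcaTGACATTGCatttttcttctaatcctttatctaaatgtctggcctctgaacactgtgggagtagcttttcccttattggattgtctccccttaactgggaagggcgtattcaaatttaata

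The windows of *Gsta1* (chr9:78230419-78230668, plus strand) and *Gsta2* (chr9:78347146-78347395, minus strand) are shown because they were the most alike of the 36 pairs of genes compared, with 71.4% identity over the aligned length. Capitals mark their longest shared run, of 29 bases.

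Gsta1: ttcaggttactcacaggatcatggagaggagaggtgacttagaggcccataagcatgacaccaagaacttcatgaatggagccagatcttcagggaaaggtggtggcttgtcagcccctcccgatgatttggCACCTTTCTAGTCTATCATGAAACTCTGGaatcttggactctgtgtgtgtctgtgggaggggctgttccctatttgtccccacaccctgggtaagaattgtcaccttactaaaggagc
Gsta2: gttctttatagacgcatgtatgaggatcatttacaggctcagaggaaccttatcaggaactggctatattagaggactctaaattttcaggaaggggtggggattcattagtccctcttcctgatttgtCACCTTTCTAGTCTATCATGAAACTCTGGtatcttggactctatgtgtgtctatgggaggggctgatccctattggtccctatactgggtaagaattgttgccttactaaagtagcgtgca

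The antioxidant response element core was searched as TGACNNNGC on both strands of the 300 bases from 250 before to 50 after each start. Of the 10 windows of the 9 genes (*Gstm1* had a pair of starts), 1 held a match, that of *Gsta3*, which lay 121 to 113 bases before the start. The core was present in 14.4% of the windows of genes in the table, so 1 of 10 is close to that background. It was present in 9 of the 29 windows of the other NRF2 target genes described further on. The core GCGTG of the xenobiotic response element was present in 6 of the 10 windows and in 48.6% of those of the table's genes. No window of these genes held the palindromic androgen response element (AGAACA and its reverse complement, 3 bases apart), which was present in 0.00691% of the table's windows. The single arm AGAACA was present in 2 of the 10 windows, of *Ephx1* and *Gstm1*, against 12.7%. These matches describe letters within a short window and nothing beyond it.

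The libraries held 36111177 to 41928585 reads on genes. DHT replicate 2 stood apart in having 45 genes at 0, against 0 to 5 in the others. A gene was counted as falling or rising where limma gave an adjusted p no higher than 0.05 (Benjamini-Hochberg over the 16292 genes tested), on log2(normalized count + 1). Of 12 GC markers, 11 were measured, *Cyp19a1* not being among the genes of the table. *Foxl2*, *Inha*, *Fshr*, *Amh* and *Amhr2* were present in every library. Of these 11, 3 fell (*Kitl*, *Inha*, *Foxl2*) and 1 rose (*Hsd17b1*), with sums of 134122 to 150299 normalized counts in control and 118419 to 127814 in DHT. These sums rest mainly on *Inha* (means of 54181 in control and 35515 in DHT) and *Inhba* (40288 and 41425). Of 7 luteal markers 4 rose (*Prlr*, *Hsd3b1*, *Ptgfr*, *Cyp11a1*), with sums of 165835 to 189209 in control and 237427 to 275113 in DHT. *Hsd3b1* and *Cyp11a1* carried most of these sums. Of 10 theca and stroma markers 8 were measured and 2 rose (*Acta2*, *Myh11*), with sums of 8074 to 11176 and 12647 to 14177. *Acta2* alone carried most of these sums, with means of 5399 in control and 9012 in DHT. By mean *Col3a1* and *Thy1* were higher in DHT and *Col1a1*, *Dcn*, *Pdgfra* and *Lum* lower, and none of these passed. *Cyp17a1* and *Insl3*, which define theca cells, were not among the genes of the table. The 7 oocyte markers summed to 307 to 813 in control, highest in replicate 1, and to 36.0 to 619 in DHT, lowest in replicate 2, where *Zp3* and *Oosp1* were at 0. Of 5 measured immune markers 1 fell (*Csf1r*), with sums of 485 to 559 and 376 to 621. Of 4 endothelial and 6 surface epithelium markers none passed by limma, with sums of 150.4 to 179 and 718 to 1184 in control and of 141 to 199 and 554 to 1217 in DHT. The part of these markers in the results on the 10 genes was not tested, and in bulk libraries fewer cells of a type and less RNA per cell cannot be told apart.

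Of the 10 genes, 3 fell in DHT-treated GCs and 7 did not pass the test, where 4.66% of all genes tested fell and 6.52% rose. *Nqo1*, *Gsta3* and *Ephx1* fell, to 26.2%, 39.0% and 71.5% of their control means. The remaining alpha class genes *Gsta1*, *Gsta2* and *Gsta4* had means of 44.6%, 43.3% and 58.9% of control and did not pass. The mu class genes *Gstm1* and *Gstm2* and *Cbr1* lay at 117%, 99.1% and 97.8% of control, and the pi class gene *Gstp1* at 90.9%. None of the 10 rose by limma, and edgeR and DESeq2 called 0 higher. At an unadjusted p under 0.05, 1 was higher (*Gstm1*) and 7 were lower, where 2186 of the 16292 genes tested were higher and 1915 lower. A stricter call, which also asked for an absolute log2 fold change above 1, was passed by 2 of the 10, *Nqo1* and *Gsta3*, against 0.399% of all genes tested in that direction, and 0 of the 10 passed it upward, against 0.908%. In 6 of the 10 every DHT library lay below every control library, and this was so for 14.7% of all genes. In none was every DHT library above every control library, as in 15.9% of all genes. The median log2 fold change was -0.59 over the 10 genes and -0.0052 over all genes tested. Because the genes were chosen with earlier results of these data known, these shares describe them and do not test the set. With control replicate 1 left out, 5 of the 10 fell (*Gsta2* and *Gsta4* in addition) and *Gstm1* rose.

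**Figure D1:**
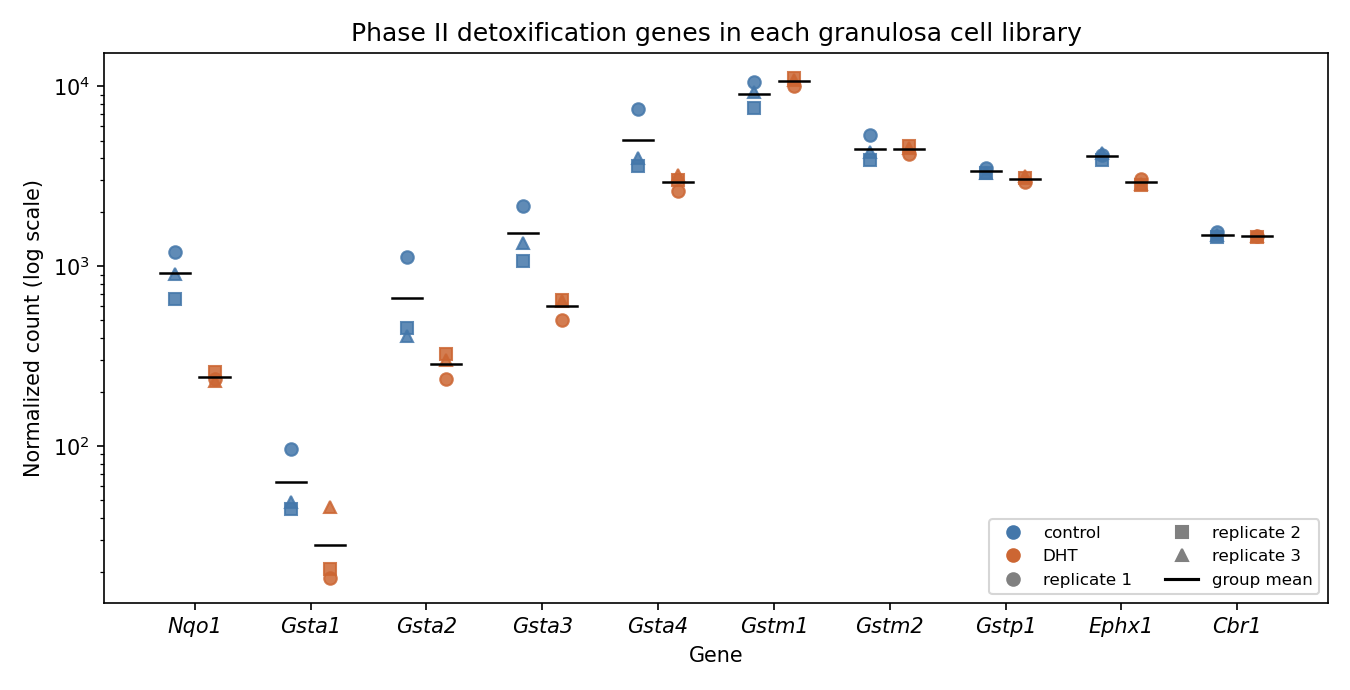
Normalized counts (log axis) of the 10 genes in each of the 3 control and 3 DHT libraries, with symbols for the replicates and bars for the group means. The DHT points of Nqo1 sit between 230 and 257, all below the control points, whereas control replicate 1 lies above the other control libraries in 9 of the 10 genes.

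*Nqo1* (ENSMUSG00000003849, chromosome 8, 107388225 to 107403206, minus strand) encodes the quinone reductase. Positions of this and the other genes are those of the GENCODE annotation on GRCm38. In control replicates 1, 2 and 3 it had 1207, 655 and 901 normalized counts, and 237, 257 and 230 in DHT replicates 1, 2 and 3. A normalized count is the gene's reads over a size factor that corrects for library depth. The groups did not overlap, and the DHT libraries lay much closer together than the control libraries. The control mean was 921 ± 277 and the DHT mean 241 ± 14.4 (SD, n = 3 each). On the log2 scale the fold change was -1.89 (standard error 0.18, 95% interval -2.30 to -1.47) and limma gave an adjusted p of 0.000397. An exact permutation test over the 6 libraries gave p = 0.1 (two-sided), the smallest that 3 against 3 allow. The fall was between -2.11 and -1.67 on the log2 scale with each library left out in turn.

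The alpha class GSTs conjugate products of lipid peroxidation and other electrophiles. *Gsta3* (ENSMUSG00000025934, chromosome 1, 21240589 to 21265661, plus strand), whose protein is also known for a step in steroid isomerization, had 2174, 1071 and 1353 normalized counts in the control libraries and 506, 649 and 639 in the DHT libraries. Every DHT library lay below every control library. The means were 1533 ± 573 and 598 ± 79.9 (SD, n = 3 each). The log2 fold change, -1.30 with standard error 0.22, passed at an adjusted p of 0.00587 by limma. Without control replicate 1 the log2 fold change was -1.02. Without the intensity trend of limma the adjusted p was 0.0666, so the call depended on that setting.

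*Gsta4* (ENSMUSG00000032348, chromosome 9, 78182774 to 78209349, plus strand) encodes the GST known for its activity towards hydroxynonenal, a product of lipid peroxidation. It had 7485, 3593 and 4002 normalized counts in control and 2622, 3038 and 3223 in DHT. The groups did not overlap, but control replicate 1 stood far above the other 5 libraries. Its log2 fold change was -0.69 (standard error 0.23, 95% interval -1.21 to -0.17) with an adjusted p of 0.0951 by limma, which did not pass. Without control replicate 1 the log2 fold change was smaller, -0.36, and the adjusted p was 0.0366. Over all alternatives the adjusted p reached 0.251.

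*Gsta2* (ENSMUSG00000057933, chromosome 9, 78331018 to 78355788, minus strand) had 1123, 453 and 411 normalized counts in control and 236, 325 and 300 in DHT. As in *Gsta4*, the groups did not overlap and control replicate 1 was by far the highest library. The log2 fold change was -1.06 (standard error 0.33, 95% interval -1.80 to -0.32) with an adjusted p of 0.0740 by limma. Without control replicate 1 it was -0.60 with an adjusted p of 0.0321, and without control replicate 3 it was -1.32 with an adjusted p of 0.0248. Over all alternatives the adjusted p reached 0.218.

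*Gsta1* (ENSMUSG00000074183, chromosome 9, 78230656 to 78242684, plus strand), the lowest of the 10 genes, had 97.0, 44.6 and 49.1 normalized counts in control and 18.6, 20.7 and 45.7 in DHT. The groups overlapped through DHT replicate 3. Its log2 fold change was -1.16 (standard error 0.39, 95% interval -2.05 to -0.28) and its adjusted p 0.0971 by limma. The adjusted p was 0.0329 by DESeq2 and 0.0458 without DHT replicate 3. With each library left out in turn the log2 fold change ran from -1.56 to -0.82, and over all alternatives the adjusted p reached 0.259. Reads of *Gsta1* are hard to tell from those of its copies. In GENCODE, 73.7% of the 150-base windows of its transcript were also present in transcripts of other genes, 62.4% in *Gm3776*, and for *Gsta2* 26.8% were. Only unique reads were counted, so the levels of both are uncertain. *Gm3776* itself had 55.4, 32.5 and 42.6 normalized counts in control and 17.6, 27.3 and 21.8 in DHT, and did not pass (adjusted p = 0.0581 by limma). *Gsta3* and *Gsta4* shared no such window with another gene.

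**Figure D2:**
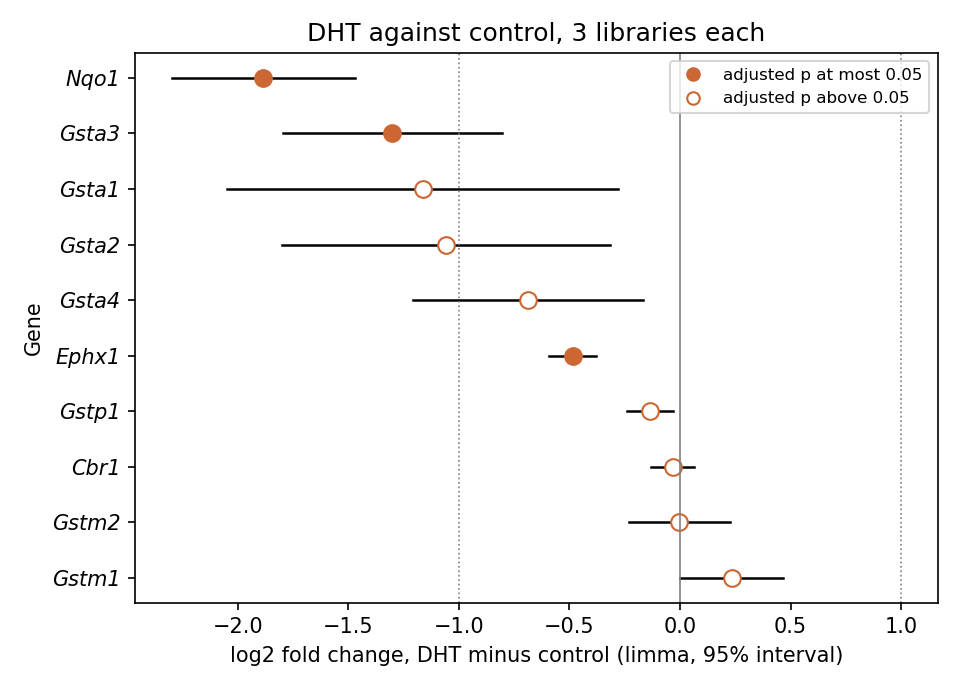
log2 fold change of each gene, DHT minus control, with its 95% interval from limma (3 libraries a group). Filled points passed an adjusted p of 0.05, and dotted lines mark a log2 fold change of 1 in either direction. Nqo1, Gsta3 and Ephx1 are filled, and the intervals of Gstm2 and Cbr1 include 0.

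Neither mu class gene passed the test. *Gstm1* (ENSMUSG00000058135, chromosome 3, 108012255 to 108017973, minus strand), which encodes a major mu class GST, had 10560, 7569 and 9267 normalized counts in control and 10007, 11143 and 10823 in DHT. The groups overlapped. The log2 fold change was 0.23 (standard error 0.10, 95% interval 0.00 to 0.47) and the adjusted p 0.195 by limma. Without control replicate 1 it was 0.35 with an adjusted p of 0.0367, and without control replicate 2 it was 0.11 with an adjusted p of 0.418. *Gstm2* (ENSMUSG00000040562, chromosome 3, 107981702 to 107986453, minus strand), its neighbour, had 5347, 3895 and 4298 normalized counts in control and 4189, 4667 and 4557 in DHT. The DHT libraries lay within the range of the controls. The log2 fold change was -0.0023 with a 95% interval of -0.23 to 0.23, and it changed sign when control replicate 1 or DHT replicate 1 was left out.

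*Gstp1* (ENSMUSG00000060803, chromosome 19, 4035407 to 4037985, minus strand), the pi class gene, had 3538, 3288 and 3317 normalized counts in control and 2939, 3093 and 3194 in DHT. Every DHT library was lower than every control library, by a small margin. The log2 fold change was -0.14 (95% interval -0.24 to -0.03) with an adjusted p of 0.0990 by limma, which did not pass. Of the 150-base windows of its transcript, 41.8% were also present in *Gstp2* transcripts, which makes its level uncertain. *Gstp2* had 17.8, 21.4 and 19.5 normalized counts in control and 10.8, 12.0 and 22.9 in DHT.

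*Ephx1* (ENSMUSG00000038776, chromosome 1, 180976210 to 181020904, minus strand) had 4139, 3886 and 4258 normalized counts in control and 3055, 2842 and 2880 in DHT. The groups were well apart and both were tight. The means were 4094 ± 190 and 2925 ± 114 (SD, n = 3 each). The log2 fold change, -0.48 with standard error 0.05, passed at an adjusted p of 0.000397 by limma. Its fall stayed between -0.52 and -0.46 on the log2 scale with each library left out. Its exons share 72 bases with the pseudogene *Gm36961* on the same strand, 3.69% of its exonic length. *Cbr1* (ENSMUSG00000051483, chromosome 16, 93605853 to 93610505, plus strand) had 1551, 1459 and 1491 normalized counts in control and 1467, 1457 and 1477 in DHT. Its groups overlapped, and the log2 fold change was -0.03 with a 95% interval of -0.13 to 0.07 (adjusted p = 0.702 by limma).

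To compare levels between genes, the normalized counts were divided by the exonic length in kilobases. In control GCs the order from high to low was *Gstm1*, *Gsta4*, *Gstm2*, *Gstp1*, *Ephx1*, *Nqo1*, *Cbr1*, *Gsta2*, *Gsta3* and *Gsta1*. *Gstm1* had 6200 ± 1018 normalized counts per kilobase (SD, n = 3), at the 98.7th percentile of the table's annotated genes over the 6 libraries. The neighbours *Gstm1* and *Gsta4*, *Gsta4* and *Gstm2*, *Gstp1* and *Ephx1*, and *Nqo1*, *Cbr1*, *Gsta2* and *Gsta3* overlapped in range over the control libraries. *Gsta1*, at 66.5 ± 30.4 normalized counts per kilobase (SD, n = 3), lay below all others in every library. Only unique reads were counted, and many windows of its transcript are shared with other genes, which can lower its level. The same holds to a lesser degree for *Gsta2* and *Gstp1*, so their places in the order are uncertain. In DHT-treated GCs *Nqo1* stood at 155 ± 9.30 normalized counts per kilobase (SD, n = 3), below *Cbr1* (574 ± 3.79) and *Gsta2* (244 ± 39.2), and overlapped only *Gsta3* (138 ± 18.4). *Gsta3* has an exonic length of 4344 bases over all its annotated isoforms, which lowers its level on this scale.

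Summed per kilobase, the 4 alpha class genes made up 37.1%, 26.8% and 26.1% of the level of the 7 GST genes in control replicates 1, 2 and 3. In DHT replicates 1, 2 and 3 the share was 17.7%, 18.7% and 19.8%, lower than in any control library. The mu class made up 51.5% to 59.5% in control and 66.5% to 68.3% in DHT, and the pi class 11.4% to 16.2% and 13.2% to 14.0%. The sum of the alpha class was 7468, 3516 and 3873 normalized counts per kilobase in the control libraries and 2407, 2847 and 2996 in the DHT libraries. The sums of the mu class overlapped between the groups, at 10354, 7458 and 8851 normalized counts per kilobase in control and 9288, 10345 and 10061 in DHT. *Gsta4* carried most of the alpha sum, so the shares rest mainly on *Gsta4*, *Gstm1* and *Gstm2*.

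**Figure D3:**
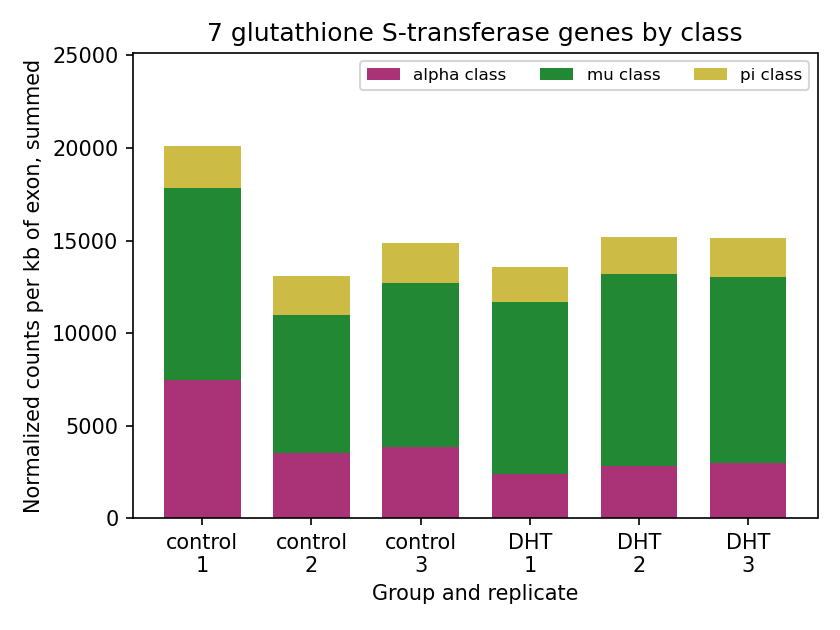
Summed normalized counts per kilobase of exon for the alpha (Gsta1 to Gsta4), mu (Gstm1, Gstm2) and pi (Gstp1) class genes in each library. The alpha part is 26.1% to 37.1% of the bar in control and 17.7% to 19.8% in DHT libraries.

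The control libraries themselves were spread apart in these genes. Control replicate 1 was the highest of the 3 control libraries in 9 of the 10 genes, and control replicate 2 the lowest in 9. Over all genes tested, these libraries were the highest in 34.4% and the lowest in 30.8%. The log2 values varied more between control than between DHT libraries in 8 of the 10 genes, against 58.3% of all genes. The median SD of the log2 values over the 10 genes was 0.34 in control and 0.083 in DHT. Control replicate 1 also had the highest sum of oocyte markers, 813 normalized counts against 307 and 331 in the other control libraries. Its sum of theca and stroma markers was the lowest, but these markers differed. Among the controls *Acta2*, *Col3a1*, *Col1a1* and *Thy1* were lowest in it and *Myh11*, *Pdgfra* and *Lum* in between. *Dcn* was highest in it, at 319 normalized counts against 149 and 104. These counts were made after the values were seen, and the part of the markers in the spread was not tested.

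The other genes of the same pathways were read from the same model. These lists, too, were chosen with earlier results of these data known, so their counts are descriptions. Of 23 further NRF2 target genes tested, 15 fell and 1 rose, with a median log2 fold change of -0.37. Those that fell included *Hmox1* (heme oxygenase, log2 fold change -1.21), *Srxn1* (sulfiredoxin, -0.94), *Gclm* and *Gclc* (the subunits of the enzyme that starts glutathione synthesis, -0.83 and -0.37), *Slc7a11* (the cystine importer, -0.83), *Txnrd1* (thioredoxin reductase, -0.70) and *Gsr* (glutathione reductase, -0.36). *Blvrb*, *Fth1*, *Ftl1*, *Aox1*, *Pgd*, *G6pdx*, *Abcc1* and *Abcc4* were the others that fell, with log2 fold changes from -0.70 to -0.24. *Idh1*, a source of cytosolic NADPH, rose by 0.46. As in the 10 genes, control replicate 1 was the highest control library in 19 of the 23, and control replicate 2 the lowest in 21. Without the intensity trend in limma 6 of the 23 fell, and with each library left out 11 to 16 did.

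A list of NRF2 pathway regulators also held *Nfe2l2*, the gene of NRF2 itself, and its relative *Nfe2l1*. On it *Nfe2l2* fell, *Nfe2l1* and *Mafk* rose, and the other 8 of 11 did not pass. The count that rose was 1 with any single library other than control replicate 3 left out, and 0 without the intensity trend. The count that fell was 2 without control replicate 2 or control replicate 3. *Nfe2l2* had 8491, 8033 and 7810 normalized counts in control and 6151, 6519 and 6415 in DHT, with no overlap between groups (log2 fold change -0.35, adjusted p = 0.00114 by limma). *Keap1*, which encodes the inhibitor of NRF2, did not pass (log2 fold change -0.15, adjusted p = 0.0534 by limma). *Mafk*, a small MAF partner of NRF2, had a log2 fold change of 0.42. Of the 9 genes of the AHR and xenobiotic receptor pathway tested, *Ahr* fell (log2 fold change -0.41), whereas *Cyp1b1* (0.45), a target of AHR, and *Arnt2* (0.22) rose. None of the 9 fell without control replicate 2, DHT replicate 2, DHT replicate 3 or the trend. The count that rose was 0 without DHT replicate 3 or the trend, and 1 without control replicate 1, control replicate 2 or DHT replicate 2. The median log2 fold change was -0.0082 over the NRF2 regulator list and -0.03 over the AHR list.

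**Figure D4:**
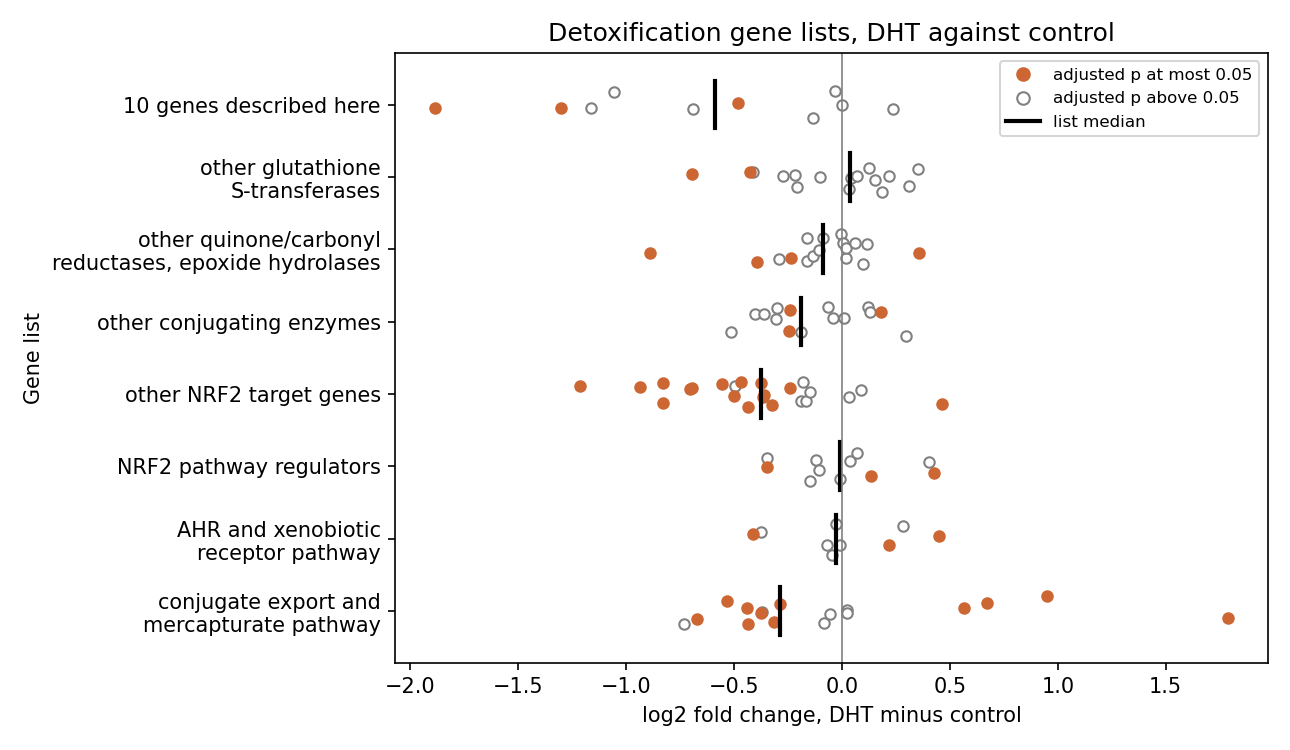
log2 fold change, DHT minus control, of each gene in the 10 genes described here and 7 further lists. Filled points passed an adjusted p of 0.05 and black bars are list medians. Of the other NRF2 target genes, 15 of 23 are filled and below 0, the median of the 10 genes is -0.59, and the medians of the 6 remaining lists lie between -0.29 and 0.04.

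Outside the 10 genes, 2 of 16 other GST genes tested fell and none rose, with a median log2 fold change of 0.04. These were *Gstt3* (a theta class gene, log2 fold change -0.69) and *Mgst2* (a microsomal GST, -0.42). The exons of *Gstt3* share 524 bases with the gene *Gm20441* on the same strand, 13.6% of its exonic length. At an unadjusted p under 0.05, 3 were higher and 3 lower by limma, and edgeR called 0 and DESeq2 called 2 higher. With any single library other than control replicate 3 left out, or without the trend, 1 fell in place of 2, and without control replicate 1, 2 rose. Of 17 other quinone and carbonyl reductases and epoxide hydrolases, 3 fell and 1 rose, with a median of -0.09. *Cbr3*, a carbonyl reductase next to *Cbr1* on chromosome 16, had 1405, 877 and 1202 normalized counts in control and 602, 604 and 640 in DHT. Its groups did not overlap, and it fell by 0.89 on the log2 scale (adjusted p = 0.00455 by limma), whereas *Cbr1* did not pass. *Akr1b8* (an aldo-keto reductase, log2 fold change -0.39) and *Ptgr1* (a prostaglandin reductase, -0.23) fell too. *Ephx2*, the soluble epoxide hydrolase, rose, with 65854, 73603 and 69781 normalized counts in control and 87378, 87537 and 92740 in DHT (log2 fold change 0.36, adjusted p = 0.00392 by limma), in the direction opposite to *Ephx1*.

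Of 15 other conjugating enzymes tested, *Ugdh* (which makes the sugar donor of glucuronidation) and *Papss2* (which makes the sulfate donor) fell, with log2 fold changes of -0.25 and -0.24, and *Papss1* rose by 0.18. The list's median was -0.19. The rise was lost without control replicate 1, DHT replicate 2, DHT replicate 3 or the trend. The count that fell was 1 without DHT replicate 2 or DHT replicate 3, and 0 without the trend. On the list for the export of conjugates and their breakdown to mercapturates, 7 of 17 genes fell and 4 rose, with a median of -0.29. Without DHT replicate 3 the count that fell was 4, and without the trend it was 3. The pumps *Abcc1*, *Abcc3*, *Abcc4* and *Abcc5*, the peptidase *Anpep*, the transferase *Ggt5* and *Chac2* fell, with log2 fold changes from -0.67 to -0.29. *Abcc2*, a pump for glutathione conjugates, rose from a low level, with 10.9, 7.43 and 11.1 normalized counts in control and 32.3, 32.7 and 43.5 in DHT (log2 fold change 1.79). *Abcb1b*, *Abcb1a* and *Chac1* rose by 0.95, 0.56 and 0.67. *Abcc1* and *Abcc4* stand on both this list and the NRF2 list. The products of *Abcb1a*, *Abcb1b*, *Chac1* and *Chac2* are not particular to conjugates or mercapturates.

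Across the 6 libraries, the log2 levels most like those of *Nqo1* by Pearson correlation were those of *Fth1* (r = 0.998), *Rbbp7* (0.997), *Cat* (0.996), *Kitl* (0.996) and *Cap2* (0.996). The most opposed were *Pla1a*, *Hsd17b12*, *Adam19*, *Nos2* and *Stom*, from -0.998 to -0.997. The 6 points include the difference between the groups and share the libraries, so these values are a description. Among the 10 genes the correlation with *Nqo1* was 0.97 for both *Gsta3* and *Ephx1*, from 0.80 to 0.88 for *Gsta1*, *Gsta2*, *Gsta4* and *Gstp1*, 0.70 for *Cbr1*, 0.25 for *Gstm2* and -0.40 for *Gstm1*.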

How the data were processed

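Total RNA from 6 libraries of cultured GCs was sequenced. The authors trimmed reads with Trimmomatic 0.36, aligned them with STAR 2.5.2b to GRCm38 and counted unique reads in exons with featureCounts of Subread 1.5.2. Strand setting is not given in the sources used here. The signal that the authors deposited is the read count divided by the DESeq2 size factor of each library. The authors also deposited the log2 fold change and p-value of their own comparison, which were not used. A second deposited table, of called genes, was not used.

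Groups followed the treatment characteristic. Values were tested as log2(value + 1) in limma 3.58.1 (R 4.3.3) with an intensity trend, over the 16292 of 16300 genes with a mean of at least 10, and adjusted by Benjamini-Hochberg. Whole reads were recovered for 100% of values in every library (tolerance 0.001), and edgeR 4.0.16 and DESeq2 1.42.0 were run on them, calling 1812 and 1927 genes where limma called 1823.

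Alternatives were pseudocounts of 0.5 and 8, quantile or TMM scaling, no filter or a minimum mean of 50, no trend, the replicate block and each library left out. Named genes were the 10 genes, list genes that passed, and the 5 genes most and least correlated with *Nqo1*. *Keap1*, *Gstp2*, *Gm3776* and the cell type markers that did not pass were named outside this rule, with their values seen. The 10 genes, lists and motifs were chosen with earlier results of these data known. Annotation was GENCODE M21, with 16259 genes matched, and promoters were from RefSeq.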

Additional observations from a re-analysis of the deposited data

How the results depend on the processing

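The falls of *Nqo1* and *Ephx1* kept their direction and their side of the threshold under all 16 alternatives run, with adjusted p-values of at most 0.0194 and 0.0179. *Gsta3* did so under 15 of 16, the exception being limma without the intensity trend. The number of the 10 genes that changed was 3 and ranged from 3 to 6 with each library left out, the number that fell from 3 to 5 and the number that rose from 0 to 1. The upper values came without control replicate 1. *Gstm2* changed sign, with log2 fold changes of 0.13 without control replicate 1 and 0.04 without DHT replicate 1, and ranged from -0.10 to 0.13 with each library left out. Without the intensity trend 6 of the other NRF2 target genes fell in place of 15, and with each library left out 11 to 16 did. The cause was not tested. *Gsta1* could not be tested with a mean of at least 50, which left it out.

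Libraries with the same replicate number did not deviate together (correlations of 0.0058, 0.067 and -0.24), so the numbers were not treated as pairs. With the replicate block 3 of the 10 genes changed and 12 of the other NRF2 target genes fell. In the same fit 1 other GST gene fell, 0 other conjugating enzymes rose, and 1 gene of the NRF2 regulator list and 1 of the AHR list rose. With quantile normalization 1 gene of the NRF2 regulator list rose and 2 fell. With a minimum mean of 50, 2 of that list fell, as did 5 of the other reductases and epoxide hydrolases in place of 3. With 3 libraries against 3 the smallest exact p is 0.1, and counts of low genes such as *Gsta1* limit the precision of their folds.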
